A study of Homo sapiens with 6 samples.

Results

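The S100 genes encode small calcium-binding proteins, and 9 of them (S100A2, S100A3, S100A4, S100A6, S100A10, S100A11, S100A13, S100A14 and S100A16) were picked by gene symbol from the 58735 genes of the expression table. Of these 9 genes, 8 reached a mean level of 1 FPKM and were tested, and S100A14 was below it. FPKM (fragments per kilobase) is a read level corrected for gene length and divided by a depth value for each library. RNA was measured by sequencing in MDA-MB-231, a human line derived from a basal-like breast adenocarcinoma. A group of 3 libraries came from cells given 0 Gy, and a group of 3 came from cells collected 24 h after 10 Gy from a caesium source. The labels give the genotype of all 6 libraries as WT and name them SCR, and the study's methods describe shSCR cells, which carry a non-targeting hairpin RNA, as its control line. All 6 libraries therefore come from 1 line, and the 2 groups differ in the dose. The labels do not say whether the replicates were separate cultures, so a p-value measures only the spread between these libraries, which may be technical.

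S100 proteins carry a pair of EF hands, the helix-loop-helix folds that hold calcium, and most of them work as dimers. When calcium binds, the dimer opens a hydrophobic face and docks onto target proteins such as annexins, myosins and p53. S100A10 is an exception, since its EF hands no longer bind calcium and it is held in the open form. Some family members also act outside the cell, where they bind receptors such as AGER (RAGE), and in epithelial tumours several have been studied for their part in invasion and inflammation.

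All 9 genes lie on the minus strand of chromosome 1 in GRCh38, within 1648 kb. S100A10 (positions 151982915 to 151994390) and S100A11 (152032506 to 152047907) are neighbours, with 38.1 kb between them. A gap of 1487 kb separates S100A11 from the other 7 genes. These begin with S100A6 (153534599 to 153536244), S100A4 (153543613 to 153550136) and S100A3 (153547329 to 153549372). S100A2 (153561108 to 153567890), S100A16 (153606886 to 153613145), S100A14 (153614255 to 153616986) and S100A13 (153618787 to 153631360) follow. S100A3 lies within the span of S100A4 on the same strand, but the 2 genes share 0 exon bases, so their counts come from different exons. S100A6 shares 23 exon bases with the antisense gene BX470102.1. S100A13 shares 235 exon bases with S100A1, which runs on the opposite strand, and 536 with AL162258.1 on its own strand. Whether strand was used in counting is not given in the sources used here, so reads in the bases shared across strands cannot be told apart. For AL162258.1, on the same strand, strand could not separate them. The shared bases were a small part of S100A6, whose exons hold 971 bases. With AL162258.1 they were 24.2% of S100A13, and AL162258.1 was listed at 0 FPKM at 0 Gy.

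The windows of 250 bases before the RefSeq starts (GRCh38.p14) were searched on both strands for the AP-1 motif TGANTCA, the GC box (GGGCGG or CCGCCC) and the TATA box (TATAAA or TTTATA). All 9 genes were matched, through 13 windows. The AP-1 motif is the site read by JUN and FOS dimers, and it was found for S100A2 and S100A3, in 2 of the 13 windows, with 6.57% of all 35116 windows holding it. The GC box, read by SP1, was found in 6 of the 13 windows, each of a different gene (S100A3, S100A6, S100A10, S100A11, S100A13 and S100A16), against 42.6% of all windows. The TATA box was found in 2 of the 13 windows, those of S100A4 and S100A13, against 10.7% of all windows. The sequences below show the AP-1 motifs of the 2 genes of lower level that lie next to each other, and a GC box of S100A11 and S100A16, which are among the abundant genes. Each is written from 5′ to 3′ on the minus strand, with the motif in capitals.
S100A3 AP-1 motif, chr1:153549465-153549494: ggaatcaggagTGAGTCActgggctagcat
S100A2 AP-1 motif, chr1:153565878-153565907: ggagtgggctgTGACTCAcaggcatgtcat
S100A11 GC box, chr1:152037055-152037084: ggaggcggggagGGGCGGggcaggcgcgga
S100A16 GC box, chr1:153609383-153609412: gaggcgtggcttGGGCGGggcgagagtgat
The AP-1 motif began 225 bases before the RefSeq start of S100A3 and 52 bases before that of S100A2. The GC boxes of S100A11 and S100A16 began 68 and 45 bases before the start. The stretches of 30 bases around the GC boxes of S100A6 and S100A10 and around both TATA boxes overlapped annotated exons. Whether the motifs themselves lay in exons was not checked. These matches describe the letters of the windows, and binding of any factor was not measured.

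The 6 libraries held between 15643641 and 28861781 reads over genes. Their log2 values correlated at 0.992 or more within a group and at 0.984 to 0.989 between groups, across genes. The line's markers VIM, CD44 and KRT18 were expressed, with a summed level of 475 to 505 FPKM at 0 Gy and 424 to 437 FPKM at 10 Gy. ESR1, PGR, EPCAM and CDH1, which this line lacks or expresses weakly, summed to between 1.64 and 1.88 FPKM in all 6 libraries. The 4 markers of leukocytes, endothelium, macrophages and fibroblasts (PTPRC, PECAM1, CD68 and FAP) summed to 1.25 to 1.40 FPKM at 0 Gy and 1.92 to 2.00 FPKM at 10 Gy. Most of that was PECAM1, at 1.22 ± 0.00854 FPKM (SD, n = 3) at 0 Gy and 1.94 ± 0.0481 FPKM (SD, n = 3) at 10 Gy, and its part in the results was not tested.

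S100A6 and S100A11 were the most abundant S100 transcripts, and both were lower after 10 Gy in the FPKM as deposited. Both were lower in all 16 alternative settings, but each passed the test (adjusted p under 0.05 in limma) in only 8 of them. S100A6 (calcyclin), which binds annexins and the ubiquitin ligase partner CACYBP, went from 2397 ± 227 FPKM to 1987 ± 69.2 FPKM (SD, n = 3 each). S100A11 (calgizzarin), which binds annexin A1 and acts in membrane repair, went from 622 ± 44.7 FPKM to 539 ± 15.5 FPKM (SD, n = 3 each). No change reached 1.3-fold in any of the 8 tested genes. The other 6 genes did not pass the test, and their fitted changes lay between -0.11 and 0.22 on the log2 scale. In a bulk sample, a smaller share of cells that express a gene and less RNA per cell cannot be told apart.

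**Figure D1:**
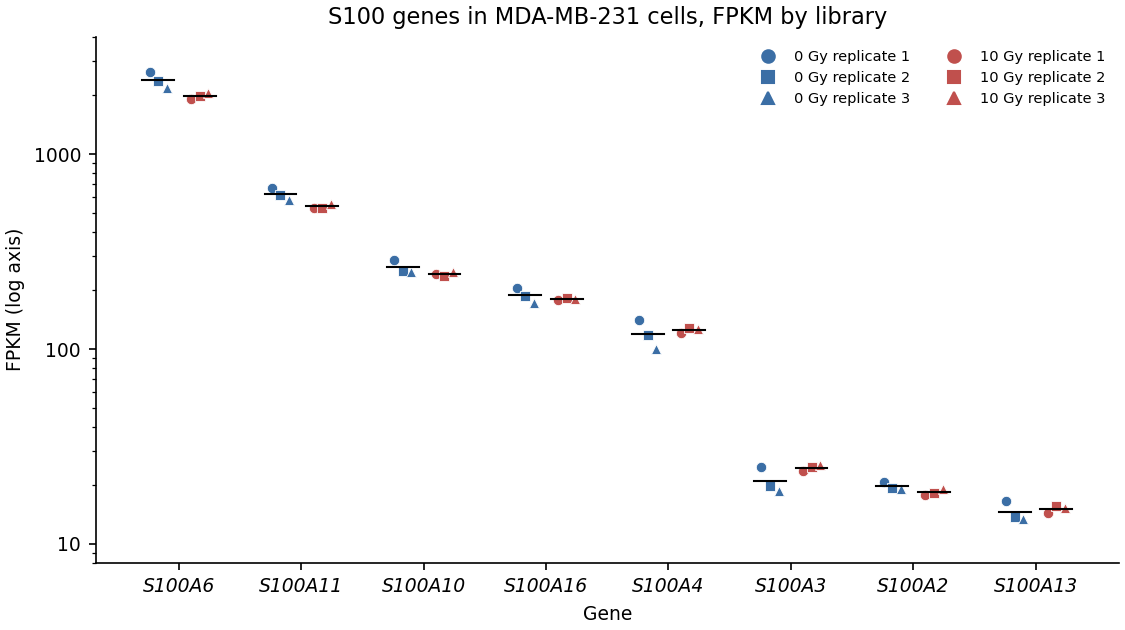
FPKM of the 8 tested S100 genes in each library on a log axis, with 0 Gy in blue, 10 Gy in red, a marker shape for each replicate number and a bar at the group mean (n = 3). S100A6 sits near 2397 FPKM at 0 Gy, 3.85 times S100A11, and S100A3, S100A2 and S100A13 sit between 13.4 and 25.4 FPKM in all libraries.

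At 0 Gy, S100A6 ranked 6 among all genes of the table by mean FPKM. S100A11 ranked 33, S100A10 ranked 104, S100A16 ranked 155 and S100A4 ranked 312. S100A3, S100A2 and S100A13 ranked 2477, 2636 and 3572. FPKM is a level per length of gene, so levels of different genes can be set in order. S100A6 was 3.85 times S100A11, which was 2.37 times S100A10. S100A10 was 1.39 times S100A16, and S100A16 was 1.58 times S100A4. The widest step among the tested genes was the next one, since S100A4 was 5.68 times S100A3. S100A3 and S100A2 overlapped at 0 Gy, with a ratio of means of 1.06, and did not overlap at 10 Gy, where S100A3 was 1.34 times S100A2. Every other pair of neighbours in this order had groups that did not overlap, at either dose.

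The 9 genes together made up 3645 ± 335 FPKM at 0 Gy and 3131 ± 90.4 FPKM at 10 Gy (SD, n = 3 each), a ratio of 0.859 with no overlap between groups. The summed FPKM of all genes also moved, from 272981 ± 4723 to 249745 ± 4487 (ratio 0.915). As a share of that sum, the 9 genes held 1.33 ± 0.10% at 0 Gy and 1.25 ± 0.0195% at 10 Gy, and these groups overlapped. S100A6 alone held 65.8 ± 0.229% of the 9 genes' FPKM at 0 Gy and 63.4 ± 0.426% at 10 Gy, without overlap. S100A6, S100A11 and S100A10 together held 90.0 ± 0.291% and 88.4 ± 0.252%. The family's output at either dose was therefore dominated by 3 genes, with a slightly smaller part from S100A6 after irradiation.

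Of the 8 tested genes, 2 (25%) were called at a Benjamini-Hochberg adjusted p under 0.05 in limma, both lower, beside 35.6% of all 12128 genes tested (11.9% higher and 23.7% lower). In limma, 0 of the 8 were called at a change of at least 1.3-fold, beside 5.77% of all genes (2.95% lower). An unadjusted p under 0.05 was found for 4 of the 8, beside 5666 of all 12128 genes tested. In the FPKM as deposited, the groups did not overlap for 4 of the 8, all lower at 10 Gy, beside 51.9% of all genes (32.8% lower). Overlap was not recomputed under other scalings. The median change over the 8 genes was -0.082 on the log2(FPKM + 1) scale, and over all genes tested it was -0.039. These counts were close to the background, and nothing about the family as a whole can be read from them.

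S100A6 was at 2639, 2366 and 2187 FPKM in the 0 Gy replicates 1, 2 and 3, and at 1917, 1987 and 2056 FPKM in the 10 Gy replicates. All 3 irradiated libraries were below all 3 controls. The log2 change was -0.27 (SE 0.081, 95% interval -0.46 to -0.08), with an adjusted p of 0.0391 in limma. Between 35220 and 55675 reads per library stood behind these values, and the coefficient of variation between libraries was 9.48% at 0 Gy and 3.48% at 10 Gy. At 0 Gy the libraries spread 1.21-fold from lowest to highest and at 10 Gy 1.07-fold.

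S100A11 was at 669, 616 and 580 FPKM at 0 Gy, and at 532, 528 and 557 FPKM at 10 Gy. The groups again did not overlap. The log2 change was -0.20 (SE 0.060, 95% interval -0.34 to -0.06), with an adjusted p of 0.0347 in limma. The pseudogenes S100A11P1 and S100A11P2 were listed at 0 in the table. The calls of S100A6 and S100A11 were both lost without the 0 Gy replicate 2, and without any 1 of the 10 Gy replicates. Over 16 alternatives the adjusted p ranged from 0.0250 to 0.388 for S100A6 and from 0.0191 to 0.214 for S100A11, and each was called in 8 of them.

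S100A10 (p11), which pairs with annexin A2 at the plasma membrane and helps to hold plasminogen there, was at 286, 251 and 250 FPKM at 0 Gy. At 10 Gy it was at 243, 236 and 247 FPKM. The 10 Gy libraries were all below the controls, but the nearest values were 250 and 247 FPKM. Its log2 change of -0.11 (SE 0.058, 95% interval -0.25 to 0.02) did not pass the test, with an adjusted p of 0.169 in limma. Without the 0 Gy replicate 1 it was -0.05.

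S100A16, a widely expressed family member, was at 207, 188 and 172 FPKM at 0 Gy and at 178, 183 and 180 FPKM at 10 Gy. The 10 Gy values all fell inside the range of the controls. S100A4 (metastasin), which binds non-muscle myosin and is known for its part in cell motility and metastasis, was at 141, 118 and 99.5 FPKM at 0 Gy and at 120, 129 and 126 FPKM at 10 Gy. It had the widest spread of the tested genes among controls, 1.42-fold, and its log2 change of 0.08 (SE 0.11, 95% interval -0.18 to 0.34) had an adjusted p of 0.611 in limma. For S100A16 the log2 change was -0.06 (SE 0.064, 95% interval -0.21 to 0.09), with an adjusted p of 0.472.

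S100A3, a cysteine-rich family member known from the hair cuticle, had the highest fitted change of the 8. It was at 24.7, 19.8 and 18.7 FPKM at 0 Gy and at 23.7, 24.7 and 25.4 FPKM at 10 Gy. The irradiated libraries sat together at the top, and the 0 Gy replicate 1 lay among them while the other 2 controls lay below. The log2 change of 0.22 (SE 0.093, 95% interval 0.01 to 0.44) had an adjusted p of 0.0996 in limma and was not called. Without that library it was 0.34, with an adjusted p of 0.00291, and the range over 16 alternatives was 0.00291 to 0.266. S100A4, whose span holds S100A3, was higher in level by 5.68-fold at 0 Gy.

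S100A2, which p53 family proteins induce in basal epithelium and which many breast tumours lose, was at 20.8, 19.4 and 19.2 FPKM at 0 Gy. At 10 Gy it was at 17.8, 18.3 and 19.1 FPKM. The groups did not overlap, by a margin of 19.2 against 19.1 FPKM, and the log2 change of -0.10 (SE 0.043, adjusted p of 0.107 in limma) was not called. S100A13, which helps to export FGF1 and IL1A without a signal peptide, was at 16.5, 13.8 and 13.4 FPKM at 0 Gy and at 14.4, 15.7 and 15.3 FPKM at 10 Gy. These groups overlapped, and the log2 change was 0.05 (SE 0.075, adjusted p of 0.601). With 1 library left out it ran from 0.0009, without the 0 Gy replicate 3, to 0.14, without the 0 Gy replicate 1, where it was called with an adjusted p of 0.0460 in limma.

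S100A14, a family member of epithelia, was near the limit of detection. It was counted with 3, 1 and 0 reads in the 0 Gy libraries and with 9, 1 and 3 reads in the 10 Gy libraries. These reads gave 0.110, 0.0509 and 0 FPKM, and 0.236, 0.0429 and 0.109 FPKM. The library with 0 reads allows up to 3 reads, or 0.108 FPKM, for counting error only. No fold change is given, since most of these libraries held 3 reads or fewer. Its neighbours S100A16 and S100A13, with 1.11 kb and 1.80 kb between them and S100A14, were at 189 ± 17.4 FPKM and 14.6 ± 1.69 FPKM (SD, n = 3) at 0 Gy.

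**Figure D2:**
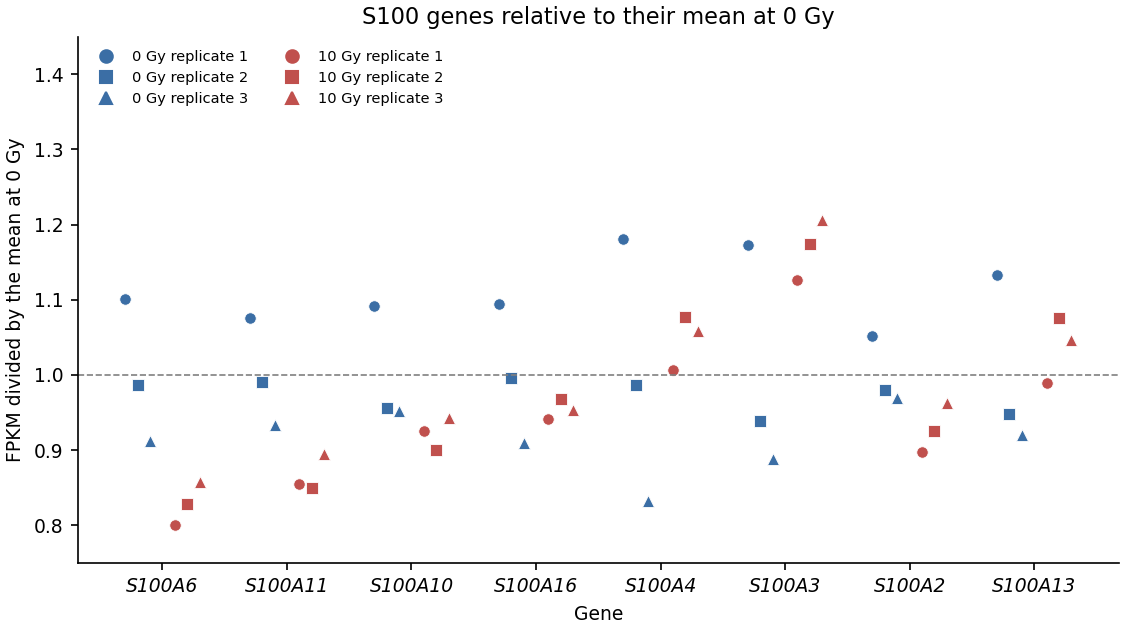
FPKM of each tested S100 gene divided by its own mean at 0 Gy (dashed line at 1), by library, with 0 Gy in blue, 10 Gy in red and a marker shape for each replicate number. The circle of 0 Gy replicate 1 is the highest of the 3 controls for 8 of 8 genes, and the red points of a gene lie closer together than its blue points.

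The 0 Gy replicate 1 was the highest control for all 8 tested genes. Over all genes tested this library was the highest control for 43.8%. For the S100 genes it exceeded the mean of the other 2 controls by 0.11 (S100A2) to 0.38 (S100A4) on the log2 scale, with a median of 0.21, beside 0.02 over all genes. The exons of the 8 genes hold 680 to 2216 bases. Genes of 1000 to under 2500 bases had this library highest in 67.0% of cases, and genes under 1000 bases in 38.5%. In the class of 1000 to under 2500 bases the median log2 change after 10 Gy was -0.11, and under 1000 bases it was -0.0041. S100A6 (971 bases), S100A11 (680) and S100A3 (955) fell in the class under 1000 bases, and the others in the class of 1000 to under 2500. The part of gene length in the values of the S100 genes was not tested. Without the 0 Gy replicate 1, the log2 change was -0.20 for S100A6 and -0.15 for S100A11, both still called, and S100A3 and S100A13 were called higher, so that 4 of 8 genes were called. Beside these 4, 3993 of all 12128 genes were called in that setting, 1393 higher and 2600 lower. Nothing about the family as a whole can be read from that count.

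The direction of the smaller changes depended on how libraries were scaled. The divisor behind the deposited FPKM was 0.973, 0.983 and 0.991 times the reads over genes in the 0 Gy libraries. In the 10 Gy libraries it was 1.036, 1.039 and 1.028 times those reads, so it differed between the groups and lowers the values at 10 Gy. Its part in the changes of single S100 genes was not tested. With TPM scaling, which sets every library to the same sum of length-corrected values, the median change of all genes moved from -0.039 to 0.077, and the share of lower genes among those called moved from 66.6% to 25.5%. With median-of-ratios scaling that share was 51.3%, with a median of 0.0008. S100A6 remained negative under TPM, at -0.14 (adjusted p = 0.109), and so did S100A11, at -0.08 (adjusted p = 0.214), but neither was called. S100A3 was called higher under TPM, at 0.36 (adjusted p = 0.0164). S100A10, S100A16 and S100A2 changed sign under TPM, to 0.02, 0.06 and 0.02, and none of these was called. Under median-of-ratios scaling 0 of 8 were called in limma, beside 3992 of all 12128 genes. There 3 of 8 had an unadjusted p under 0.05, and the matching number over all genes was not tallied for this scaling.

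**Figure D3:**
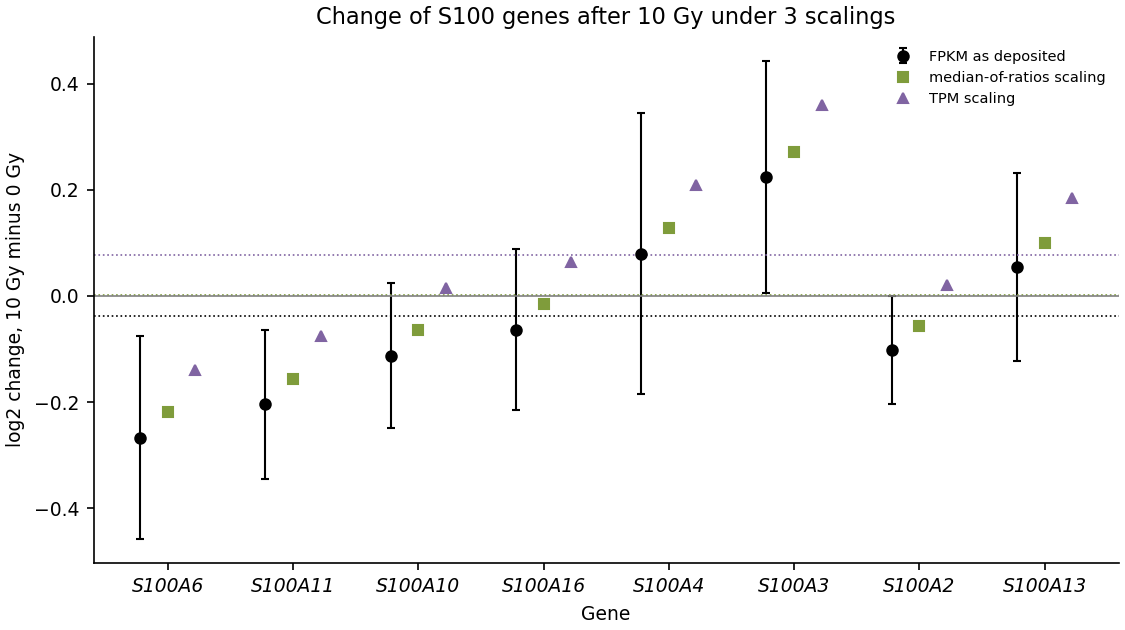
log2 change (10 Gy minus 0 Gy) of the 8 tested S100 genes with FPKM as deposited (black, bars are 95% intervals, n = 3 libraries a group), with median-of-ratios scaling (green) and with TPM (purple); dotted lines mark the median over all genes under each. S100A6 and S100A11 lie below their dotted line and S100A3 above it under each scaling, from -0.27, -0.20 and 0.22 as deposited to -0.14, -0.08 and 0.36 with TPM.

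A ratio of 2 genes in the same library does not depend on the scaling, so each tested gene was also set against S100A6. This comparison was chosen after seeing the data, and S100A6 has the lowest log2 change of the 8 tested genes, so the choice itself sets the ratios of the other 7 higher at 10 Gy. The ratios are given as a description. S100A3 was 0.936, 0.835 and 0.855% of S100A6 at 0 Gy, and it was 1.24% in each of the 3 libraries at 10 Gy. The ratio was 1.42-fold higher after irradiation, a log2 difference of 0.50. S100A4 was 5.35, 4.98 and 4.55% of S100A6 at 0 Gy and 6.28, 6.48 and 6.15% at 10 Gy, a log2 difference of 0.35. For S100A13 the difference was 0.33, for S100A16 0.20, for S100A2 0.16 and for S100A10 0.15. The smallest was that of S100A11, which was 25.4, 26.0 and 26.5% of S100A6 at 0 Gy and 27.7, 26.6 and 27.1% at 10 Gy, a log2 difference of 0.06. All 7 ratios had groups that did not overlap. Over the 12061 genes for which this ratio was defined in every library, 52.6% had groups that did not overlap, and 50.4% were both without overlap and higher at 10 Gy. The log2 change of S100A6 stood at the 9.6th percentile of all genes tested, so most genes had a higher mean ratio to it after irradiation. All 7 share S100A6, so they are not independent of each other.

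**Figure D4:**
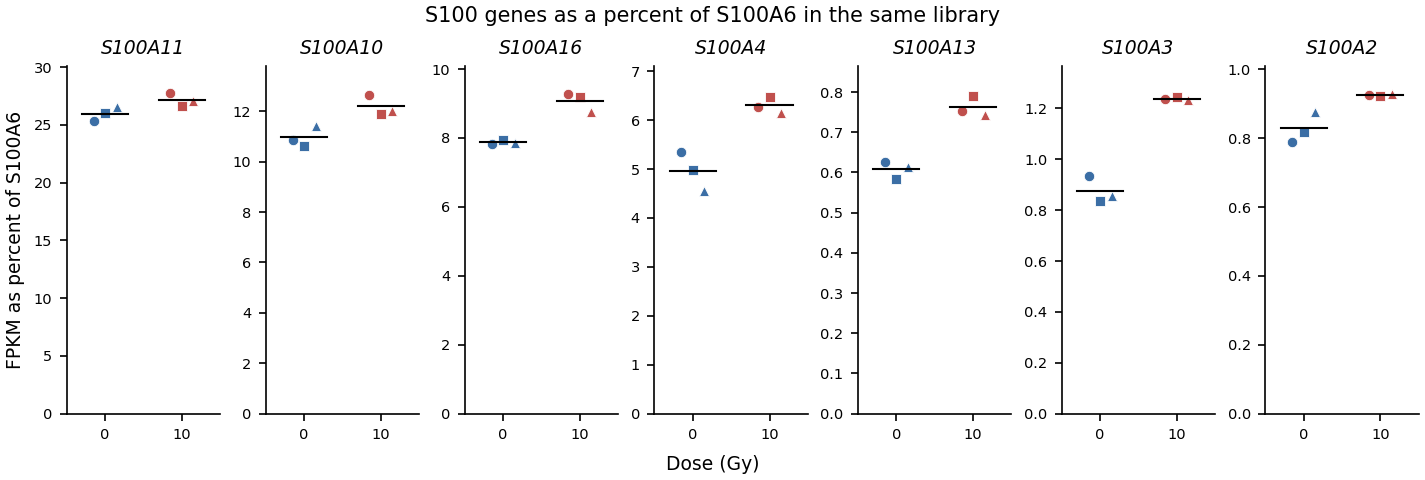
FPKM of 7 S100 genes as a percent of S100A6 in the same library, by dose in Gy, with a marker shape for each replicate number, a bar at the mean and every axis starting at 0. The red 10 Gy points lie above the blue 0 Gy points for all 7 genes, between 26.6 and 27.7% for S100A11 and between 0.743 and 0.790% for S100A13.

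Genes for known partners of S100 proteins inside the cell were examined next. Of 18 such genes, 6 were called, 1 higher and 5 lower, which is 33.3% beside 35.6% of all genes. In limma 0 of them were called at 1.3-fold, beside 5.77% of all genes. An unadjusted p under 0.05 was found for 9 of the 18, beside 5666 of all 12128 genes tested. Their median log2 change was -0.036, beside -0.039 over all genes. ANXA2 (annexin A2), the partner of S100A10, fell from 162 ± 8.48 to 138 ± 3.01 FPKM (SD, n = 3), a log2 change of -0.22 (adjusted p = 0.00875). ANXA1 (annexin A1), which S100A11 binds, fell from 128 ± 4.10 to 107 ± 2.49 FPKM, a log2 change of -0.26 (adjusted p = 0.00238). CACYBP fell from 50.9 ± 1.49 to 45.7 ± 0.703 FPKM, a log2 change of -0.15 (adjusted p = 0.0107). PPP5C (a phosphatase, -0.31), S100PBP (-0.23) and MYH10 (non-muscle myosin, 0.14) were the other called genes, and they are named after their values were seen. With TPM, ANXA2 (adjusted p = 0.0587), CACYBP (adjusted p = 0.434) and S100PBP (adjusted p = 0.0725) were no longer called, S100PBP was also lost without the 10 Gy replicate 1 (adjusted p = 0.0529), and MYH10 was called in 7 of 15 alternatives. MYH9, the myosin that S100A4 binds, was at 187 FPKM at 0 Gy and 185 FPKM at 10 Gy, with an adjusted p of 0.761.

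S100A10 stood at 1.67, 1.58 and 1.61 times ANXA2 at 0 Gy, and at 1.75, 1.75 and 1.76 times ANXA2 at 10 Gy. The irradiated libraries were all above the controls, with a log2 difference of 0.11 and a two-sided exact permutation p of 0.1, the smallest possible here. S100A11 stood at 5.03, 4.87 and 4.61 times ANXA1 at 0 Gy and 4.97, 5.07 and 5.10 times at 10 Gy. These groups overlapped, with a log2 difference of 0.06 and an exact permutation p of 0.2. S100A6 stood at 50.2, 47.7 and 43.2 times CACYBP at 0 Gy and 42.2, 44.1 and 44.3 times at 10 Gy, a log2 difference of -0.11 with overlap (exact permutation p = 0.3). No design of 3 libraries against 3 can reach a p of 0.05 in this test.

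**Figure D5:**
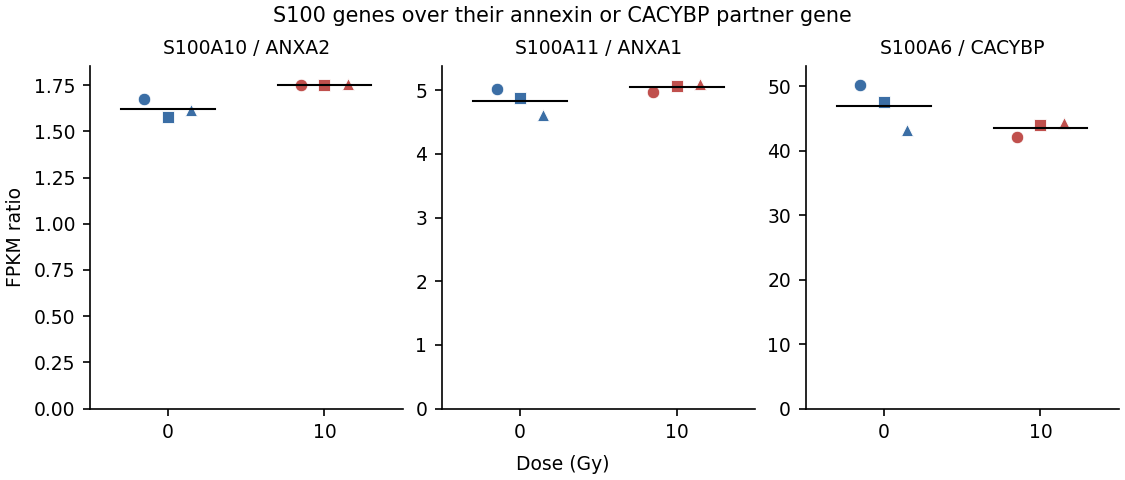
FPKM ratio of S100A10 to ANXA2, S100A11 to ANXA1 and S100A6 to CACYBP in each library by dose in Gy, with a bar at the mean of 3 libraries and axes from 0. The 10 Gy points lie above the 0 Gy points for S100A10 over ANXA2 (1.75 to 1.76 against 1.58 to 1.67), and the groups overlap for the other 2 ratios.

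Of 13 genes for partners outside the cell or on its surface, 9 were tested and 4 were called, 1 higher and 3 lower (44.4%, beside 35.6% of all genes), with a median log2 change of -0.03. Of the 9, 3 were called at 1.3-fold, beside 5.77% of all genes, and they belong to the plasminogen system that S100A10 helps to localize. PLAU (urokinase) fell from 107 ± 9.65 to 79.3 ± 3.23 FPKM (log2 change -0.43, adjusted p = 0.00333), and its receptor PLAUR fell from 48.2 ± 2.08 to 35.4 ± 1.07 FPKM (-0.43, adjusted p = 0.000707). PLAT (tissue plasminogen activator) rose from 17.3 ± 0.377 to 23.0 ± 0.405 FPKM (0.39, adjusted p = 0.000593). PLAU, PLAUR, PLAT and PLG (plasminogen) stood in the list as genes of that system, and PLG was listed at 0 in every library. The list was chosen with earlier results of these data known, so the 3 of 9 is a description and not an independent excess. The other called gene was ALCAM (-0.17, adjusted p = 0.00575). Any link of these changes to S100A10 was not tested. With TPM the changes of PLAU (-0.31) and PLAUR (-0.31) were under 1.3-fold, as was that of PLAU without the 0 Gy replicate 1 (-0.37), and they were still called at the adjusted p. AGER, the RAGE receptor of several S100 proteins, was at 1.51, 1.53 and 1.40 FPKM at 0 Gy and 1.96, 1.74 and 1.31 FPKM at 10 Gy, which overlapped (adjusted p = 0.461). IL1A, a cargo of S100A13, was at 3.69, 3.28 and 2.67 FPKM at 0 Gy and 3.50, 3.12 and 2.83 FPKM at 10 Gy. FGF1, the other cargo, stayed near 1 FPKM or below in every library and was not tested.

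Among 21 other genes with EF hands, such as calmodulins, calpains and reticulocalbins, 6 (28.6%) were called, 1 higher and 5 lower, beside 35.6% of all genes (23.7% lower). Their median log2 change was -0.096, beside -0.039 over all genes. In limma 0 of these were called at 1.3-fold, beside 5.77% of all genes. An unadjusted p under 0.05 was found for 12 of the 21, beside 5666 of all 12128 genes tested. The table holds 71 genes between the outer ends of the 9 genes that are not S100 genes, and 55 of these were listed at 0 in every library. Of the 71, 4 were tested, and 1 (25%) was called, beside 35.6% of all genes. FLG (filaggrin), a barrier protein of skin with its own pair of EF hands, was the called one, at 2.65 ± 0.427 FPKM at 0 Gy and 3.55 ± 0.330 FPKM at 10 Gy (SD, n = 3), a log2 change of 0.32 (adjusted p = 0.0381), which was called in 9 of 15 alternatives.

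Of the 12 other S100 genes, 2 reached the filter. S100A5, which lies beside S100A6, was at 7.30, 5.56 and 5.65 FPKM at 0 Gy and 7.34, 6.64 and 6.72 FPKM at 10 Gy, with a log2 change of 0.15 (adjusted p = 0.253). With 1 library left out it ran from 0.09 to 0.26, and it was called without the 0 Gy replicate 1 (adjusted p = 0.0134). S100P, the only one of these 2 on another chromosome, was at 1.61, 1.42 and 0.938 FPKM at 0 Gy and 1.67, 1.58 and 2.27 FPKM at 10 Gy, with a log2 change of 0.29 (adjusted p = 0.133). S100A1 was at 0.269 and 0.354 FPKM on average, S100Z stood on 1 to 3 reads per library, and S100G on 1 read in 2 libraries and 0 in the other 4. The neutrophil and inflammation genes S100A8, S100A9 and S100A12, the psoriasis genes S100A7, S100A7A and S100A7L2, and the glial and melanocyte gene S100B had 0 reads in all 6 libraries. For these 7 genes a count of 0 allows up to 3 reads per library, or 0.0225 to 0.576 FPKM depending on the gene and the library. The 9 genes described here therefore made up 99.8% of the family's FPKM at 0 Gy and 99.7% at 10 Gy.

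The genes most like S100A6 were found by Pearson's r over the 6 libraries, among 4576 other protein-coding genes with a mean level of 10 FPKM or more. They were PGAM1 (a glycolytic mutase), TXN2 (mitochondrial thioredoxin), PRDX3 (mitochondrial peroxiredoxin), CAPNS1 (the small calpain subunit) and RCN1 (a reticulocalbin), with r from 0.996 to 0.998. These values are a description of 6 points that fall into 2 groups and share their library depth. Their log2 changes were -0.10, -0.19, -0.13, -0.17 and -0.19, beside -0.27 for S100A6. CAPNS1 and RCN1 also carry EF hands and stood in the list of other EF-hand genes.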

How the data were processed

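The table covers 6 libraries of MDA-MB-231 cells, grouped by the treatment in the labels. The authors deposited FPKM values per gene from polyA libraries. Their processing notes name HISAT2 and GRCh38, and the counting program is not given in the sources used here. All 58735 gene identifiers are in GENCODE 29, and 99.92% have the same coordinates there. FPKM times gene length and a divisor inferred for each library gave whole reads for 100% of values (within 0.05 read). These reads were used to describe depth and counts only. Expression was compared with limma 3.58.1 in R 4.3.3 on log2(FPKM + 1), with an eBayes trend. The fit took the 12128 genes whose mean reached 1 FPKM. A fold on this scale understates changes of low genes. A gene was called where its p, adjusted by Benjamini and Hochberg over all genes tested, was under 0.05. Ratios of genes were compared by exact permutation of the libraries, two-sided. The procedure was tested on simulated data. The genes, lists and tests were chosen with earlier results of these data known. Named genes are the S100 genes, the genes of the ratios, list genes called at 1.3-fold and the 5 genes most like S100A6. FLG and others outside this rule were named after their values were seen. Promoter sequences are from RefSeq. Figures used Python 3.11.15 and matplotlib 3.10.9. Alternatives covered the pseudocount, the low-level filter, other scalings, eBayes settings, protein-coding genes alone, a replicate block and each library left out.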

Additional observations from a re-analysis of the deposited data

How the results depend on the processing

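Counts and changes of single genes were recomputed under 16 alternatives (15 for FLG, MYH10, S100P and S100PBP), and the ratios to partner genes and to S100A6 under 8. Ranks, summed levels, group overlaps and motifs were not recomputed. S100A6 and S100A11 were negative in all 16 and called in 8 of them each, with changes of -0.33 to -0.14 and -0.25 to -0.08 on the log2 scale. S100A3 was positive in all 16 and called in 3. Of the 8 tested S100 genes, 2 were called as reported, 0 without a filter on low genes (1 at an unadjusted p under 0.05), 0 with median-of-ratios scaling, 1 with TPM, 1 with TPM at a pseudocount matched to 1 FPKM (added after seeing the data), and 0 to 4 when 1 library was left out. The count was 0 without the 0 Gy replicate 2 or without any 1 of the 10 Gy replicates, where 1 to 3 had an unadjusted p under 0.05. Over all genes, the number at an unadjusted p under 0.05 was tallied only for the fit as reported, so these counts have no background beside them. Of the other EF-hand genes, 6 were called as reported, 2 without the filter and 1 to 7 with a library left out. Of the region genes, 1 was called as reported, 0 with a filter of 5 FPKM and 0 to 1 with a library left out. Over all 12128 genes 4317 were called, and 2660 to 3993 with a library left out, lowest without the 10 Gy replicate 2. Among the same genes 4179 were called with TPM, 4198 with TPM at the matched pseudocount and 3992 with median-of-ratios scaling. Without the filter 2912 of 31650 genes were called. With TPM, signs reversed for S100A2 (0.0213), S100A10 (0.0150), S100A16 (0.0646) and PGAM1 (0.0248), and with the matched pseudocount at 0.0205, 0.0150, 0.0643 and 0.0247. With 1 library left out, S100A16 ranged from -0.1293 to 0.0033 (reversed without the 0 Gy replicate 1) and S100A4 from -0.0442 (reversed without the 0 Gy replicate 3) to 0.206. S100A10 ranged from -0.1465 to -0.0485 and S100A13 from 0.0009 to 0.1417. Causes were not tested.

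The labels do not say whether same-numbered libraries were paired, and the reported fit used no block. Same-numbered libraries had correlations of -0.0405, -0.0349 and -0.1011 in their deviations from the group means. With 3 libraries a group, these correlations cannot show whether the cultures were paired. With a replicate block 0 S100 genes were called (2 at an unadjusted p under 0.05), with adjusted p of 0.103 for S100A6 and 0.0790 for S100A11, and 1 EF-hand gene, 0 region genes and 3503 genes in all. The ratios of S100A10 to ANXA2, S100A11 to ANXA1 and S100A6 to CACYBP have the same mean difference under the block by construction (0.11, 0.06 and -0.11), and an exact test allows no p below 0.25 there. With a library left out they were 0.09 to 0.13, 0.03 to 0.09 and -0.17 to -0.06. With 3 libraries a group, the 95% intervals of the tested S100 genes reach 0.10 to 0.26 log2 units to either side of the estimate. Changes of that size or smaller could have been missed, and so could larger ones, since a call needed an adjusted p under 0.05. The intervals are not adjusted for the number of genes, and that of S100A3 (0.01 to 0.44) left out 0 although the gene was not called.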
